A study of Mus musculus with 14 samples.

Results

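Antibody genes were followed through adipocyte RNA of 3 mouse fat depots on 2 diets. The members were chosen by symbol and by level: all genes of the heavy chain, kappa and lambda families, and the joining chain gene Jchain, that reached at least 1 FPKM in at least 2 of 14 libraries. FPKM is the number of read fragments divided by gene length and by the mapped total of the library. Of 38553 gene identifiers per library, 244 had such a symbol at any level, and 138 met the rule. One of them, Ighmbp2, encodes a helicase and shares only the first letters of its symbol, so it was set aside and 137 antibody genes remained. They comprise 63 of 108 heavy chain variable (V) genes, 64 of 102 kappa V genes, all 3 lambda V genes, the heavy constant genes Ighm, Igha, Ighg2b and Ighg2c, the light constant genes Igkc and Iglc2, and Jchain.

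The libraries came from male C57BL/6 mice given a normal diet or the high-fat diet D12492 for 16 weeks from weaning at 3 weeks. Inguinal (subcutaneous white), epididymal (visceral white) and brown fat was digested with collagenase, for 20 min in white and 40 min in brown fat, and the floating adipocyte layer was kept. Each library pooled tissue of 3 to 5 mice, so no value belongs to a single animal and p-values measure the spread between pools. Each of the 4 white groups had 3 libraries, numbered 0 to 2 in the titles, and brown fat had 1 library per diet, which entered no test.

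B cells build an antibody by joining V, D and J gene segments and splicing the joined exon to a constant region. Resting B cells carry IgM, made with Ighm, on their surface. Plasma cells secrete large amounts of antibody, with Jchain linking the subunits of IgM and IgA polymers. Fat depots hold B cells of several kinds, including B-1 cells of the serous cavities and visceral fat, and the inguinal pad encloses a lymph node. Rearrangement of antibody genes is known from lymphocytes, not from adipocytes. In bulk RNA, fewer cells of a type and less RNA per cell cannot be told apart.

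Adipocyte genes were present in every library. The summed FPKM of 12 adipocyte markers, such as Fabp4 and Adipoq, ranged from 17121 to 43487, and that of 10 brown markers was 483 and 1621 in the brown libraries against 11.5 to 317 in white ones. Between 15399 and 18029 genes lay above 0, and read depth cannot be had from these values. The libraries fall into 2 sets by the 22 mitochondrial tRNA genes, all listed at 0 in 8 libraries (the 6 epididymal ones, 1 inguinal, which is replicate 0 of the normal diet, and the brown library of the high-fat diet) and above 0 for 10 to 19 of them in the other 6. Inguinal normal-diet replicate 1 stands apart from replicates 0 and 2, with a summed B cell marker level of 154 FPKM in that library and up to 1112 in the others. A value of 0 can be a failed estimate and is described as listed at 0.

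Of the members, only Jchain had an entry in the sequence tables used here. Its promoter is shown because Jchain was one of the members that differed by diet in both depots. It lies on chromosome 5 of GRCm38.p6 (RefSeq), on the minus strand, just before the gene at 88519809 to 88527897. The 250 bases before its start, chr5:88527898-88528147, read 5′ to 3′:

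Jchain promoter: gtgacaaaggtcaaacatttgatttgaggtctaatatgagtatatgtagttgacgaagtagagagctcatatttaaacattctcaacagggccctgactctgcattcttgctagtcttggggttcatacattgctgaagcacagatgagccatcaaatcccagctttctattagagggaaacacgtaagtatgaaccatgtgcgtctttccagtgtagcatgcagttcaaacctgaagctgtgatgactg

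No letters are in capitals because none of 3 motifs searched on both strands was found in this window. The octamer ATGCAAAT, known from antibody gene promoters, was in 1.60% of 32851 RefSeq promoter windows, the TATA box letters TATAAA in 12.4%, and the PU.1 core GAGGAA in 23.3%.

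Kappa light chain RNA had the highest mean of all members in inguinal normal-diet libraries, came second to Ighm in epididymal ones, and was lower in both white depots of mice fed the high-fat diet. Igkc, the single kappa constant gene (chromosome 6, 70726435 to 70726754), stood at 1097, 241 and 769 FPKM in the 3 inguinal normal-diet libraries and at 29.6, 19.1 and 25.3 on the high-fat diet. Its epididymal values were 142, 158 and 76.3 on the normal diet against 14.8, 14.2 and 9.50. The groups did not overlap in either depot, and the brown libraries, at 2.22 on the normal and 8.02 on the high-fat diet, were below every white one. Mean Igkc was 28.5-fold higher on the normal diet in inguinal libraries (702 ± 432 against 24.6 ± 5.28 FPKM, SD, n = 3) and 9.76-fold higher in epididymal ones (125 ± 43.1 against 12.8 ± 2.91). In log2(FPKM + 0.5), where the added 0.5 shrinks the differences of weakly expressed genes, Igkc fell by 4.57 (SE 0.47, limma with Benjamini-Hochberg adjustment over all genes, adjusted p = 0.000165) in inguinal and by 3.20 (SE 0.47, adjusted p = 0.000585) in epididymal libraries. The difference between these falls was 1.37 (SE 0.66, adjusted p = 0.251). Without inguinal normal-diet replicate 1 it was 2.02 (adjusted p = 0.00961), and without replicates 0 and 2, where replicate 1 stands alone, it was 0.087 (adjusted p = 0.953).

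Lambda RNA followed the same order at lower levels. Iglc2, a lambda constant gene (chromosome 16, 19198536 to 19198852), had 170, 27.97 and 140 FPKM in inguinal normal-diet libraries, with replicate 1 again lowest, and 3.49, 2.76 and 0.577 on the high-fat diet. In epididymal libraries it had 2.48, 4.92 and 2.57 on the normal diet, and 0.288, 1.10 and 0 on the high-fat diet. The groups did not overlap in either depot, and both brown libraries were listed at 0. In inguinal libraries it fell by 5.19 (SE 0.69, limma, adjusted p = 0.000695). The epididymal difference of -2.098 (SE 0.69, adjusted p = 0.0512) missed the threshold and passed it in 9 of 20 other settings.

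The kappa share of the light constant FPKM, Igkc over Igkc plus Iglc2, does not depend on library scaling. It was 86.6%, 89.6% and 84.6% in inguinal normal-diet libraries and 98.3%, 97.0% and 96.7% in epididymal ones, with no overlap. The mean difference was 10.4 percentage points (exact permutation test, two-sided, p = 0.1, adjusted p = 0.267 over 24 ratio tests). With 3 libraries against 3 such a test cannot go below 0.1, so none of the 24 could pass. The shares of high-fat libraries ran from 87.4% to 97.8% in inguinal and from 92.8% to 100% in epididymal libraries and overlapped.

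Jchain RNA, too, was lower with high-fat feeding in inguinal and epididymal libraries alike. It stood at 11.2, 7.47 and 5.33 FPKM in inguinal normal-diet libraries and at 0.505, 0.789 and 0 on the high-fat diet. In epididymal libraries it stood at 7.33, 7.06 and 3.20 on the normal diet and at 0.874, 0.629 and 0.515 on the high-fat diet. No normal-diet library overlapped a high-fat one. On the log2 scale it fell by 3.24 (SE 0.41, limma, adjusted p = 0.0005) in inguinal and by 2.37 (SE 0.41, adjusted p = 0.00162) in epididymal libraries. Epididymal minus inguinal on the normal diet was -0.44 (SE 0.41, adjusted p = 0.545).

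Ighm, the constant gene of IgM (chromosome 12, 113418826 to 113422730), went the other way from Igkc in epididymal libraries. In epididymal libraries it stood at 131, 154 and 149 FPKM on the normal diet and at 429, 477 and 623 on the high-fat diet, with no overlap, a 3.52-fold higher mean (510 ± 101 against 145 ± 11.8 FPKM, SD, n = 3). The rise was 1.80 (SE 0.39, limma, adjusted p = 0.00735) and was called in all 20 other settings. In inguinal libraries it stood at 460, 134 and 460 on the normal diet and at 412, 595 and 512 on the high-fat diet. Those groups overlapped, and the difference of 0.71 (SE 0.39) had an adjusted p of 0.226. With normal-diet replicates 0 and 2 left out, a setting chosen after the data were seen, it was 1.90 (adjusted p = 0.00366). That arm is then the single replicate 1, assumed to vary like the other groups, so this p rests on 1 library. The brown libraries had 18.3 FPKM on the normal and 254 on the high-fat diet, 1 library each.

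Ighm and Igkc therefore stood in different proportion on the 2 diets. Igkc was 2.39, 1.79 and 1.67 times Ighm in inguinal normal-diet libraries and 1.08, 1.03 and 0.512 times Ighm in epididymal ones, in FPKM. In high-fat libraries it was 0.0320 to 0.0718 times Ighm in inguinal and 0.0152 to 0.0345 times in epididymal libraries. The summed FPKM of heavy V members showed the same order: it was 0.409 to 1.59 times Ighm in the normal-diet white libraries and 0.00683 to 0.0309 times in the high-fat ones. The summed kappa V members, set against Igkc, lay between 0.593 and 1.19 in the normal-diet white libraries and between 0.163 and 1.42 in the high-fat ones. In the white high-fat libraries Ighm was thus high while heavy V genes were low. In inguinal normal-diet replicates 0 and 2 both were high, with Ighm at 460 FPKM in each and heavy V sums of 730 and 431. Where along Ighm its reads fall was not analysed here.

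**Figure D1:**
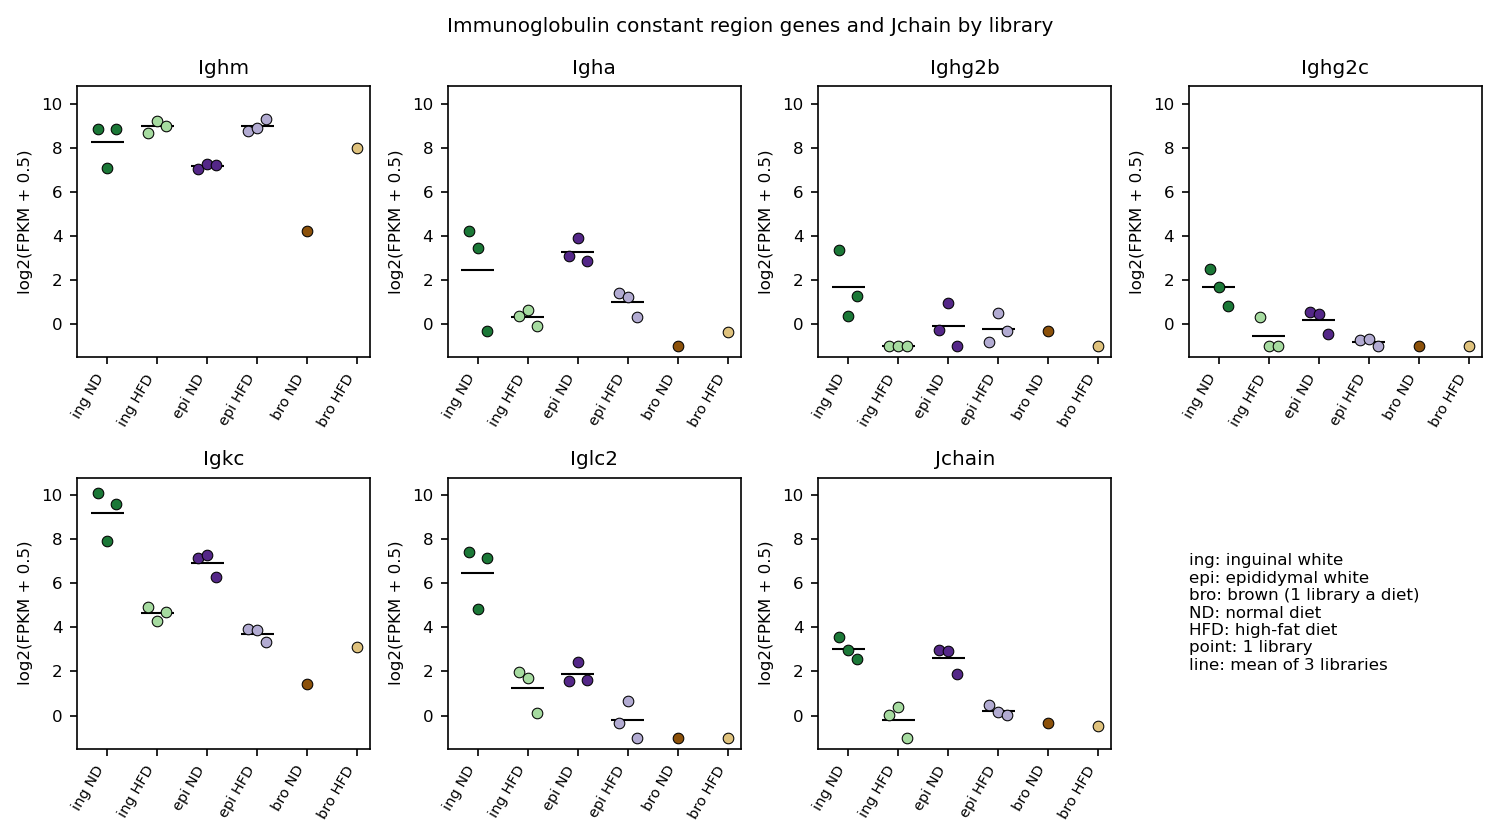
Level of each constant gene member and Jchain, as log2(FPKM + 0.5), in every library by depot and diet; points are libraries and lines are means of the log2 values of 3 libraries. Igkc, Iglc2 and Jchain are lower in every high-fat white library than in the normal-diet libraries of the same depot, while Ighm in epididymal libraries is higher in all 3 high-fat libraries.

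Of the class-switched constant genes, Igha (IgA) was the most abundant in epididymal libraries. It stood at 8.13, 14.4 and 6.66 FPKM on the normal diet and at 2.16, 1.81 and 0.747 on the high-fat diet without overlap, a difference of -2.30 (SE 0.88, limma, adjusted p = 0.0901). In inguinal libraries it stood at 18.1, 10.5 and 0.309 on the normal diet and at 0.801, 1.05 and 0.445 on the high-fat diet, where replicate 2 of the normal diet lay below all 3. That difference was -2.14 (SE 0.88, adjusted p = 0.108), and without this library -3.53 (adjusted p = 0.000646). In the epididymal comparison the adjusted p was 0.0381 with the replicate number as a block and 0.0485 and 0.00106 without inguinal normal-diet replicates 0 and 2 respectively, which enter only through the shared spread.

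IgG genes were low. Ighg2b stood at 9.89, 0.786 and 1.90 FPKM in inguinal normal-diet libraries and was listed at 0 in all 3 high-fat ones, and Ighg2c stood at 5.21, 2.72 and 1.28 against 0.757, 0 and 0. Both passed the test there, with log2 differences of -2.67 (SE 0.69, limma, adjusted p = 0.0195) and -2.23 (SE 0.48, adjusted p = 0.00872). The Ighg2b call was lost with any inguinal high-fat library (adjusted p = 0.0536 to 0.057) or inguinal normal-diet replicate 0 (adjusted p = 0.0566) left out. With only the 2 groups in the fit, neither Ighg2b (limma, adjusted p = 0.065) nor Ighg2c (0.056) was called. In epididymal libraries Ighg2b was at most 1.42 FPKM and Ighg2c at most 0.971, and neither passed. Ighg1 and Ighg3 did not meet the rule, reaching 1.62 and 1.93 FPKM in 1 inguinal normal-diet library each, and Ighe (IgE) reached 0.16 FPKM in 1 library. All 20 heavy chain D segment genes were listed at 0 everywhere. Ighd (IgD) and the lambda genes Iglc1 and Iglc3 were not analysed here.

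Ighm made up most heavy constant FPKM everywhere. Its share was 93.3%, 90.2% and 95.6% in epididymal normal-diet libraries and 99.5%, 99.4% and 99.8% on the high-fat diet (means 93.0% ± 2.69 and 99.6% ± 0.232, SD, n = 3). In inguinal libraries it was 93.3%, 90.6% and 99.2% on the normal and 99.6%, 99.8% and 99.9% on the high-fat diet. The groups did not overlap in either depot (exact permutation p = 0.1 in each, adjusted p = 0.267). The IgA share was 5.77%, 8.44% and 4.26% in epididymal normal-diet libraries against 0.499%, 0.377% and 0.120% on the high-fat diet (exact permutation p = 0.1, adjusted p = 0.267). These shares carry the level of Ighm, which was high in white high-fat libraries where heavy V sums were low. They do not give the class of antibody made, and Ighd is not among the genes counted. The ratio of Jchain to Ighm, as log2 of the values plus 0.5, was lower on the high-fat diet by 4.17 in epididymal and by 3.95 in inguinal libraries, again without overlap (exact permutation p = 0.1 in each).

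**Figure D2:**
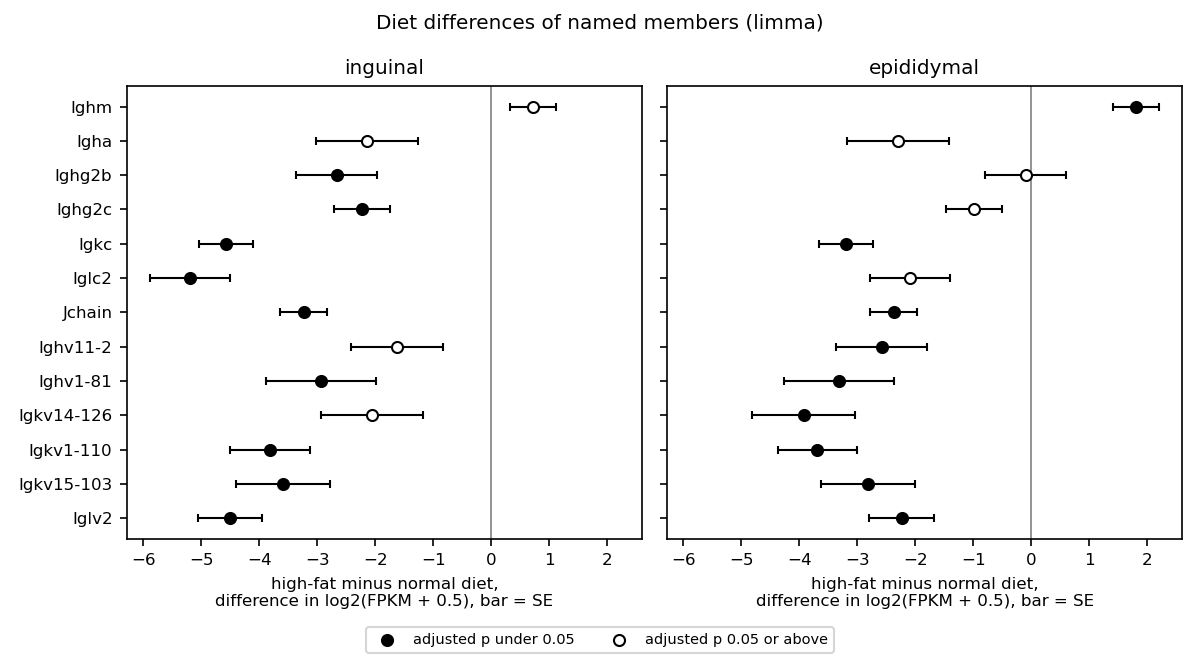
Difference between high-fat and normal diet in log2(FPKM + 0.5) for the constant gene members, Jchain and 6 V genes, in inguinal (left) and epididymal (right) libraries; bars are standard errors and filled points passed an adjusted p of 0.05. Ighm is the only gene of the 13 with a difference above 0 in both depots, 0.71 and 1.80.

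More V members stood at 1 FPKM or more in each inguinal normal-diet library than in any other library. The rule, met largely through those libraries, helps to set this. Above 0 it did not hold, with 73 in inguinal and 75 in epididymal normal-diet replicate 1. At 1 FPKM or more stood 130, 62 and 98 of the 130 V members in inguinal normal-diet replicates 0, 1 and 2, and 40, 52 and 18 in epididymal normal-diet replicates. High-fat libraries had 17, 2 and 10 in inguinal and 9, 6 and 1 in epididymal libraries, and brown libraries had 1 on the normal and 4 on the high-fat diet. Their summed FPKM was 1967, 238 and 1184 in inguinal and 226, 310 and 151 in epididymal normal-diet libraries, against 10.1 to 32.7 in the 6 white high-fat libraries. Epididymal replicate 1 thus had a higher sum than inguinal replicate 1. Of the 130, 55 were listed at 0 in all 6 white high-fat libraries and 122 in both brown ones. How many V genes lie above a threshold depends on total level and on depth, which is unknown.

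The rule itself draws on these levels. Without the inguinal normal-diet libraries 48 of the 137 members would have met it, and the other 89 could reach 1 FPKM in at most 1 library outside that group. Of the V genes among the members, 123 were highest in an inguinal normal-diet library and 7 in an epididymal normal-diet one, such as Ighv1-77. Just inside the rule, by the second highest library, were Ighv5-4 at 1.14, Ighv2-4 and Ighv1-85 at 1.15 and Igkv4-54 at 1.16 FPKM, and just outside were Ighv1-84 at 0.969, Ighv5-9 at 0.878, Ighv9-2 at 0.858 and Ighv11-1 at 0.808. V segments are short and many are close copies of each other, so a read can be given to the wrong copy or split among copies. The value of a single V gene is uncertain for this reason, above all in the large families Ighv1, with 31 members, and Igkv4, with 15. How alike the members are could not be computed here.

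In inguinal libraries 57 of the 111 members that passed the filter on low values were lower on the high-fat diet and 0 were higher. Over all 14959 genes tested, 10.2% were lower and 9.30% higher, 19.5% in all. The filter asks for at least 0.5 FPKM in at least 3 white libraries, and members that pass the rule only through the inguinal normal-diet libraries are bound to be low in most others, so the count describes the members and supports nothing. Among the 48 members that meet the rule without those libraries, 27 were lower and 0 higher. The median difference of the 111 was -3.05, and that of all genes -0.01. By class, 19 of 46 heavy V genes, 30 of 55 kappa V genes and 3 of 3 lambda V genes were lower, beside Igkc, Iglc2, Jchain, Ighg2b and Ighg2c. The count was 31 of 79 tested without normal-diet replicate 0, beside 1923 of all 14702 genes. It was 36 of 110 without high-fat replicate 1, beside 1654 of 14819. With normal-diet replicates 0 and 2 both left out, so that replicate 1 stands alone, the median of the members was -2.23. Replicate 0 is the only inguinal library with mitochondrial tRNA listed at 0, so the first of these settings is also the comparison within the other set.

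The most abundant V genes there were kappa genes. Igkv10-96 stood at 64.6, 4.31 and 19.3 FPKM in inguinal normal-diet libraries and at 0.406 to 1.92 on the high-fat diet, and Igkv9-120 at 42.8, 1.89 and 52.3 against 0 to 0.922. Igkv8-30, with 13.5, 25.5 and 25.2 FPKM, was listed at 0 in all 3 high-fat libraries, and its replicate 1 was as high as replicate 2. Among heavy V genes Ighv1-82 stood at 35.8, 7.90 and 21.0 FPKM and was listed at 0 in each of the other 11 libraries. Ighv1-26, the heavy V gene with the highest mean, stood at 44.5, 0 and 24.9 and did not pass the test (difference -4.05, SE 1.36, limma, adjusted p = 0.0559). Ighv1-64 with 32.3, 0 and 29.5 and Ighv1-18 with 30.2, 0 and 20.1 FPKM were likewise listed at 0 in replicate 1 and did not pass (adjusted p = 0.125 and 0.0762). Ighv3-6 (26.7, 2.02 and 18.3 FPKM against 0.996, 0 and 0), Igkv1-117 (40.9, 6.59 and 20.2 against 1.21, 0 and 0) and Igkv11-106 (42.7, 0.624 and 37.8 against 0 in all 3) were lower, with differences of -3.92 (SE 1.01, adjusted p = 0.0186), -4.60 (SE 1.00, adjusted p = 0.00897) and -4.62 (SE 1.24, adjusted p = 0.0229).

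No V gene dominated the inguinal normal-diet libraries. The highest one held 3.29%, 10.7% and 4.41% of the summed V FPKM (Igkv10-96, Igkv8-30 and Igkv9-120 in replicates 0, 1 and 2). The Ighv1 family held 64.8%, 41.4% and 60.5% of the heavy V sum in these libraries, and each of the kappa families Igkv1, Igkv4, Igkv6 and Igkv8 held between 6.10% and 20.5% of the kappa V sum. The lambda V genes Iglv1 (51.5, 3.45 and 15.9 FPKM), Iglv2 (25.96, 6.23 and 7.68) and Iglv3 (30.7, 3.17 and 37.6) all fell on the high-fat diet, where each reached at most 2.18 FPKM in any inguinal library.

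**Figure D3:**
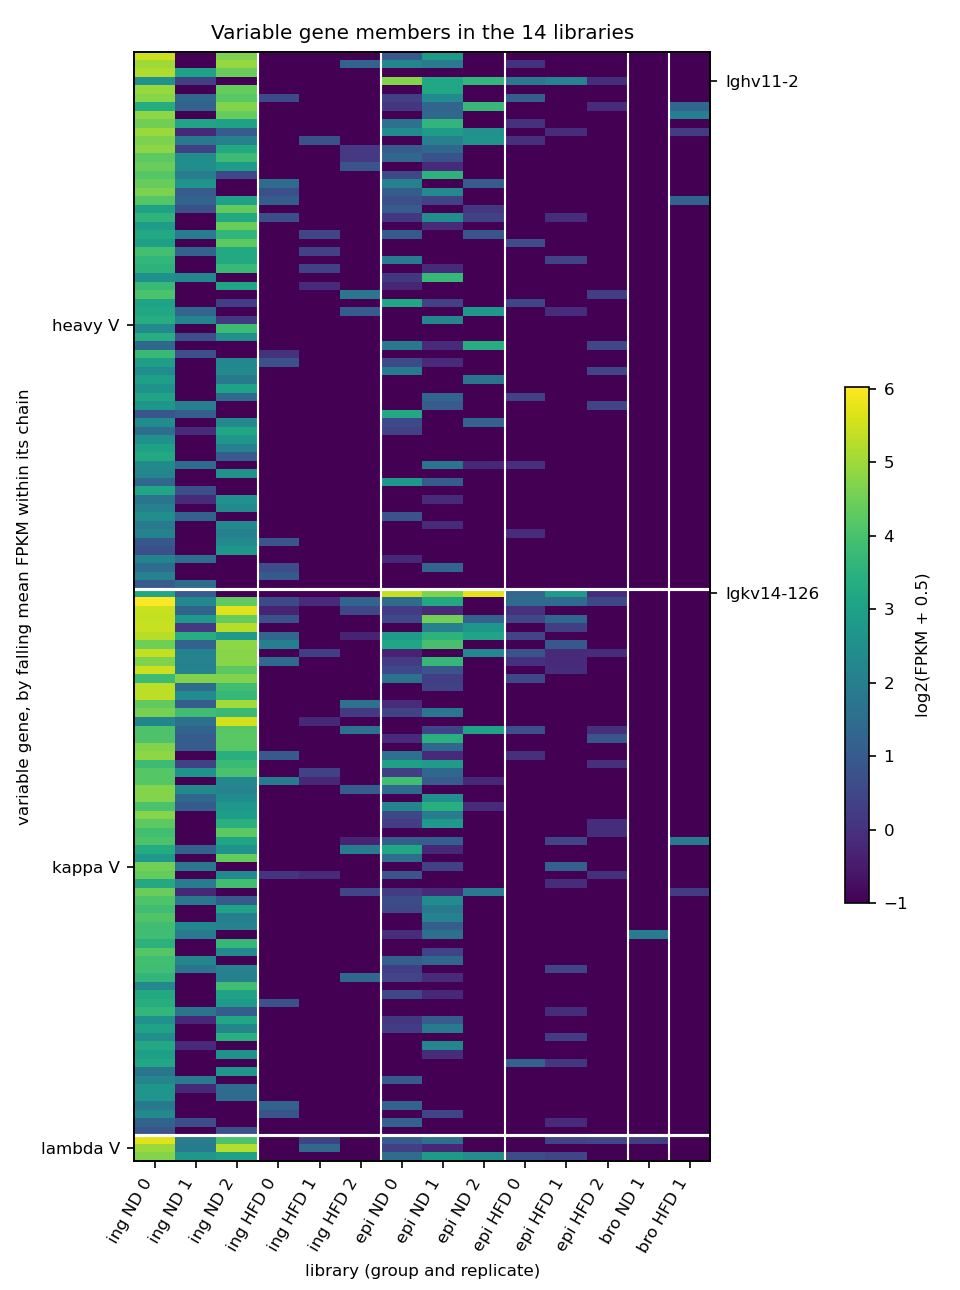
Level of the 130 V gene members (rows, by falling mean within heavy, kappa and lambda) in the 14 libraries (columns), as log2(FPKM + 0.5). Inguinal normal-diet replicate 0 is filled throughout, replicate 1 has 62 members at 1 FPKM or more, and Ighv11-2 and Igkv14-126, marked at the right, are brightest in epididymal normal-diet libraries.

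Epididymal normal-diet libraries were led by one kappa V gene. Igkv14-126 was the highest V gene in all 3 of them, with 42.2, 24.8 and 52.8 FPKM, and held 18.7%, 7.998% and 34.9% of the summed V FPKM. After the high-fat diet it stood at 1.99, 6.41 and 0.445, below all 3, and fell by 3.93 (SE 0.88, limma, adjusted p = 0.00848), a call kept in all 20 other settings. RefSeq classes this gene as a V segment pseudogene (chromosome 6, 67896177 to 67896642). In inguinal libraries it stood at 8.48, 1.51 and 0 on the normal diet and was listed at 0 in all 3 high-fat libraries.

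The heavy V gene Ighv11-2 had a like distribution. It stood at 25.8, 8.80 and 12.1 FPKM in epididymal normal-diet libraries and at 2.99, 3.85 and 0.445 on the high-fat diet, and fell by 2.58 (SE 0.79, limma, adjusted p = 0.0379). That call was lost in 10 of 20 other settings, among them each epididymal library but high-fat replicate 1 (adjusted p = 0.051 to 0.152) and each inguinal high-fat library left out (adjusted p = 0.0517 to 0.0522). Inguinal libraries had 5.36, 0.757 and 0 FPKM on the normal diet and 0 on the high-fat diet. Ighv11-2 and Igkv14-126 are known as the heavy and light chain genes of one set of B-1a cell antibodies that bind phosphatidylcholine, and Ighv12-3 with Igkv4-91 as those of another. The second pair was looked up after the values were seen. Ighv12-3 had 3.07, 0.414 and 9.80 FPKM in epididymal normal-diet libraries and 2.08, 0 and 0 in inguinal ones, while Igkv4-91 had 7.61, 6.76 and 0 in epididymal and 13.7, 0.793 and 13.3 in inguinal ones.

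As a share of its own chain, which does not depend on library scaling, Igkv14-126 made up 32.9%, 13.2% and 62.1% of the kappa V sum in epididymal normal-diet libraries and 0.751%, 1.06% and 0% in inguinal ones. Ighv11-2 made up 27.6%, 7.78% and 19.9% of the heavy V sum in the first and 0.734%, 0.92% and 0% in the second. In the epididymal high-fat libraries the shares were 15.8%, 31.8% and 8.25% for Igkv14-126 and 30.3%, 63.9% and 10.4% for Ighv11-2, of sums of only 5.40 to 20.2 FPKM for kappa V and 4.28 to 9.86 for heavy V. Every epididymal library lay above every inguinal library in both shares. The 3 inguinal high-fat shares were 0%, of sums of only 3.11 to 19.9 FPKM for kappa V and 4.07 to 12.7 for heavy V. The 2 diets overlapped within the epididymal depot.

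**Figure D4:**
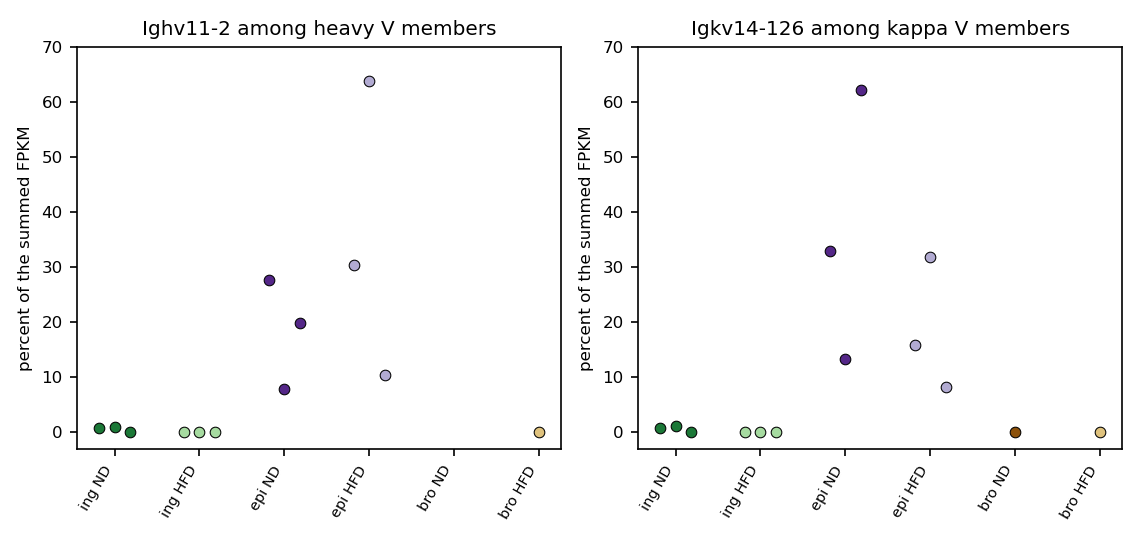
Percent of the summed heavy V FPKM held by Ighv11-2 (left) and of the summed kappa V FPKM held by Igkv14-126 (right) in each library; the brown normal-diet library has no heavy V value above 0 and no point at the left. All 6 epididymal libraries lie between 7.78% and 63.9%, and all 6 inguinal libraries at or below 1.06%.

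By the test, 8 of the 111 members were lower on the high-fat diet in epididymal libraries (7.35% of all genes tested were lower) and 1 was higher (12.2% of all genes, 19.5% in both directions). The lower ones were Igkc, Jchain, Igkv14-126, Igkv1-110, Ighv11-2, Ighv1-81, Igkv15-103 and Iglv2, and the higher one was Ighm. Over all 111 members the share lower is thus close to the background. All called members are among the 48 that meet the rule without the inguinal normal-diet libraries, and 0 of the other 63 were called. These 48 can meet it through epididymal normal-diet libraries, so a count among them supports nothing. With only the 2 epididymal groups in the fit, 10 of 25 members were lower and 1 higher, beside 1448 and 2344 of 13532 genes. Members can pass the filter there through the normal-diet libraries alone. The median difference of the 111 was -0.94, and that of all genes 0.07. Igkv1-110 stood at 6.90, 11.2 and 8.04 FPKM on the normal diet and at 0.872, 0 and 0 on the high-fat diet (fall of 3.69, SE 0.68, limma, adjusted p = 0.00267). Ighv1-81 stood at 4.82, 6.90 and 5.38 against 0, 0.433 and 0, Iglv2 at 2.36, 6.62 and 5.10 against 1.07, 0.883 and 0, and Igkv15-103 at 4.10, 10.0 and 0.395 against 0 in all 3.

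Calls of the last 3 depended on single libraries. Ighv1-81 (adjusted p = 0.0277) was lost with any of the 6 epididymal libraries left out (adjusted p = 0.0518 to 0.0897). Igkv15-103 (adjusted p = 0.0293) was lost without any high-fat library or normal-diet replicate 0 or 1 (0.0764 to 0.113), and Iglv2 (adjusted p = 0.014) without high-fat replicate 2 (0.0614) or normal-diet replicate 1 (0.057). Without high-fat replicate 2, 5 of 110 members tested were called, beside 2017 of all 14861 genes. Without normal-diet replicate 2 it was 14 of 110, beside 2261 of 14819. That normal-diet library also held Crisp1, a secreted protein gene of the epididymis, at 38.3 FPKM, which was at most 1.37 in all others, and the part of epididymal tissue in its values was not tested. All 6 epididymal libraries belong to the set with mitochondrial tRNA listed at 0. On these p-values the test is limma's with Benjamini-Hochberg adjustment.

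Between depots on the normal diet, 27 of 111 members were lower in epididymal than in inguinal libraries (4.15% of all genes tested were lower) and 2 were higher (2.36% of all genes, 6.51% in both directions), Igkv14-126 and Ighv11-2. The median of the members was -1.80 and that of all genes 0. Of the lower members, 19 met the rule only through the inguinal normal-diet libraries. Igkv14-126 was higher in epididymal libraries by 4.21 (SE 0.88, limma, adjusted p = 0.0189) and Ighv11-2 by 3.24 (SE 0.79, adjusted p = 0.0332), with no overlap. Iglc2 differed by -4.58 (SE 0.69, adjusted p = 0.00455) and Igkc by -2.29 (SE 0.47, adjusted p = 0.0173).

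Which inguinal normal-diet libraries enter decides much of this comparison. Without inguinal replicate 0, 17 of 79 members tested were called, beside 918 of all 14702 genes. Without replicate 1 it was 64 of 98, beside 2988 of 14694. Without replicate 2 it was 14 of 92, beside 325 of 14679, and without epididymal replicate 2 14 of 110, beside 251 of 14819. With replicate 0, the one with mitochondrial tRNA listed at 0, as the only inguinal normal-diet library, the median of the members was -3.33. With replicates 0 and 2 both left out it was -0.72. In both of these settings the inguinal arm is 1 library, assumed to vary like the other groups. Their p-values therefore do not cover the spread between inguinal libraries. With replicate 0 alone Igkv14-126 was higher by 2.11 (adjusted p = 0.15) and Ighv11-2 by 1.31 (adjusted p = 0.325). Without inguinal replicates 0 and 2 they were higher by 4.26 (adjusted p = 0.018) and 3.53 (adjusted p = 0.0299), by the limma fit. Igkv14-126 was not called without epididymal replicate 0 (0.0605) or 2 (0.0796) or inguinal replicate 2 (0.056), and Ighv11-2 not without any epididymal normal-diet library (0.0581 to 0.104), epididymal high-fat replicate 0 (0.0502) or inguinal replicate 2 (0.12). Igkc was not called without epididymal replicate 2 (0.0784) or inguinal replicate 2 (0.070), nor with quantile normalization (0.0568). With only the 2 groups in the fit, Igkc (0.116), Igkv14-126 (0.089) and Ighv11-2 (0.127) all missed the threshold. Without inguinal replicates 0 and 2, Igkc differed by -1.01 (adjusted p = 0.24) and Iglc2 by -2.95 (adjusted p = 0.0622).

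For Ighm the depot difference on the normal diet was -1.08 (SE 0.39, limma, adjusted p = 0.125). Without inguinal replicate 1 it was -1.67 (adjusted p = 0.000375), and without replicates 0 and 2 it was 0.10 (adjusted p = 0.906). For Igha it was 0.83 (SE 0.88, adjusted p = 0.602), and without inguinal replicate 2 it was -0.56. These values show no direction that holds across the libraries.

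On the high-fat diet 0 of the 111 members were called between the depots by limma (2 at an unadjusted p under 0.05). Of all genes tested 10.6% were, 7.08% higher and 3.53% lower in epididymal libraries. The median of the members was 0, and only 8 members passed the filter with just these 2 groups in the fit. Members at or near 0 in both groups could hardly be called, so this count does not show that the depots were alike. With the replicate number as a block, whose meaning the labels do not give, 1 member was called. This was Ighv11-2, at 2.28 (limma, adjusted p = 0.0438, and 0.0951 without the block). Igkv14-126 differed by 2.34 (SE 0.88, adjusted p = 0.129), and Iglc2 by -1.49 (SE 0.69, adjusted p = 0.224). Leaving out inguinal normal-diet replicate 0 or 2, which enter only through the shared spread, gave 2 calls each, of 79 and 92 members tested. Leaving out epididymal high-fat replicate 2 gave 1 of 110. Calls over all genes were 1748 of 14702, 2054 of 14679 and 1041 of 14861 in these fits. The 2 sets by mitochondrial tRNA coincide with the depots here and cannot be told apart from them.

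The diet difference itself differed between depots for 13 of 111 members, all with a larger fall in inguinal libraries (7.22% of all genes tested were called, 4.80% in this direction and 2.42% in the other). All 13 are V genes that met the rule only through the inguinal normal-diet libraries, led by Ighv1-82 and Igkv6-17, both listed at 0 in every epididymal library. None of the constant genes passed: Ighm had a difference of 1.09 (SE 0.56, limma, adjusted p = 0.283) and Iglc2 of 3.09 (SE 0.97, adjusted p = 0.0782). Without inguinal normal-diet replicate 1 the count was 45 of 98 tested, beside 2541 of all 14694 genes. Ighm was then at 1.68 (limma, adjusted p = 0.00239) and Iglc2 at 3.91 (adjusted p = 0.00613). The count was 4 to 8 without any other single library except epididymal normal-diet replicate 1 (14 of 102, beside 826 of 14803 genes). In the fits with 4 to 8, calls over all genes fell as well. They were 430 to 876, of 14679 to 14861 genes tested, against 1080 of 14959 with all libraries. With inguinal normal-diet replicates 0 and 2 left out, so that replicate 1 stands alone, the median of the members was 0.88. It was 1.94 with all libraries.

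Genes that mark B cells were compared with the antibody genes in the same fit. Cd79a, which encodes a signalling subunit of the B cell receptor, stood at 166, 19.1 and 178 FPKM in inguinal normal-diet libraries and at 1.55 to 2.78 on the high-fat diet. In epididymal libraries it stood at 1.61, 2.69 and 1.38 on the normal and at 0.0883, 0.149 and 0.295 on the high-fat diet. Of 19 B cell markers tested, 18 were lower on the high-fat diet in inguinal libraries and 1 in epididymal ones. On the normal diet 18 were lower in epididymal than in inguinal libraries. Of all genes tested, 10.2% were lower and 9.30% higher by diet in inguinal libraries, and 7.35% and 12.2% in epididymal ones. Between depots on the normal diet 4.15% were lower in epididymal libraries. The same shares stand beside the marker lists that follow. Cd79a itself fell by 4.96 (limma, adjusted p = 0.000703) in inguinal libraries and differed by -1.79 (adjusted p = 0.0782) in epididymal ones. Summed over the list, B cell markers had 154 to 1112 FPKM in inguinal normal-diet libraries, 43.7 to 54.7 in epididymal normal-diet, 43.8 to 44.3 in inguinal high-fat and 23.2 to 26.6 in epididymal high-fat ones. In the other white libraries most or much of these sums is Ebf1, a B cell factor that adipocytes also express, at 15.6 to 37.1 FPKM. Without Ebf1 the sums were 117 to 1085, 6.62 to 18.8, 12.3 to 21.0 and 4.12 to 7.54 FPKM in the same order of groups.

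Relative to Cd79a, kappa RNA was higher in epididymal than in inguinal normal-diet libraries. The log2 ratio of Igkc to Cd79a (each plus 0.5) was 6.08, 5.63 and 5.35 there and 2.72, 3.62 and 2.105 in inguinal normal-diet libraries, a mean difference of 2.87 with no overlap (exact permutation p = 0.1, adjusted p = 0.267). With high-fat feeding the ratio was 4.70, 4.50 and 3.65 in epididymal and 3.20, 2.76 and 3.66 in inguinal libraries. It was lower than on the normal diet by 1.40 in the epididymal depot, without overlap (exact permutation p = 0.1), where Cd79a on the high-fat diet lies below the 0.5 added to it. With 0.1 added in place of 0.5 that difference was -0.38. The plain ratio of Igkc to Cd79a in FPKM was 168, 95.2 and 32.2 in epididymal high-fat and 88.0, 58.7 and 55.4 in normal-diet libraries, which overlap, so no diet difference holds across these scales.

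**Figure D5:**
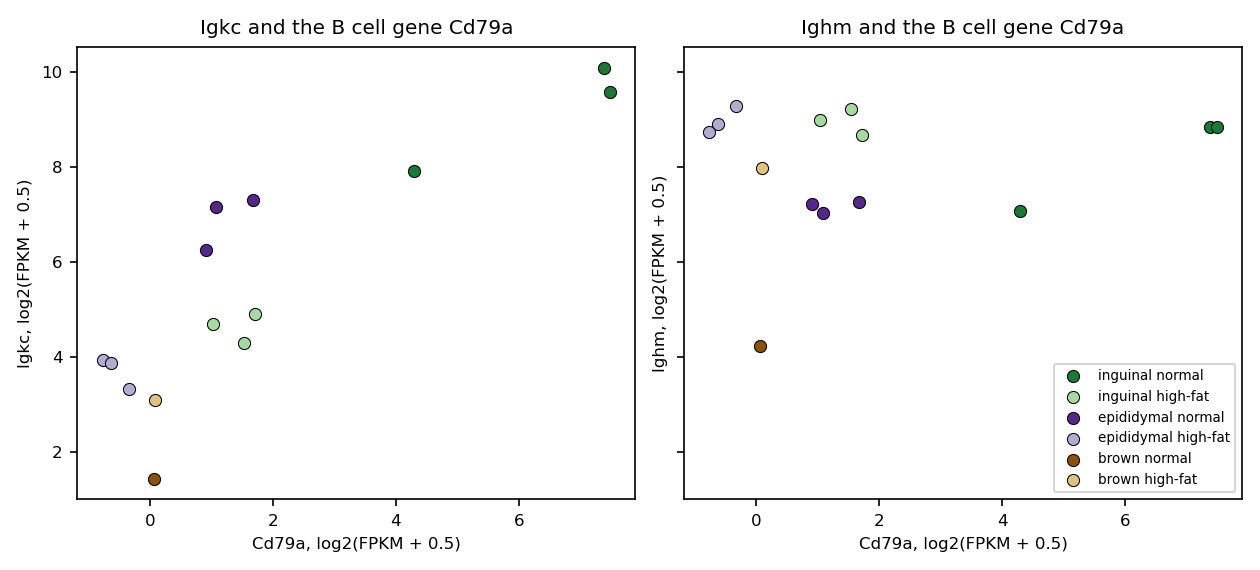
Igkc (left) and Ighm (right) against Cd79a in each of the 14 libraries, all as log2(FPKM + 0.5), coloured by depot and diet. Epididymal normal-diet and inguinal high-fat libraries have similar Cd79a, at 1.38 to 2.78 FPKM, but Igkc of 76.3 to 158 and 19.1 to 29.6 FPKM, and the 3 epididymal high-fat libraries have the lowest Cd79a beside Ighm of 429 to 623.

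T cell markers moved with the inguinal antibody genes, while genes of lymph node stroma went both ways. All 18 T cell markers tested were lower on the high-fat diet in inguinal libraries and none in epididymal ones, and their sum was 55.3 to 938 FPKM in inguinal normal-diet libraries and at most 20.4 in every other white group. The follicular gene Cr2, a complement receptor of B cells and follicular dendritic cells, had 19.7, 2.35 and 11.8 FPKM in inguinal normal-diet libraries and at most 0.511 in other white libraries. Of 11 tested genes of lymph node stroma and high endothelial venules, 6 were lower and 1 higher on the high-fat diet in inguinal libraries. The list includes Cr2, Fcer2a, Ltb and Lta, which lymphocytes express, and without them 2 of 7 were lower (Clu and Cxcl13) and 1 higher (Mfge8). Cxcl13, a chemokine of B cell follicles, had 12.3, 104 and 11.8 FPKM in inguinal normal-diet libraries, highest in replicate 1, where lymphocyte markers were lowest, and at most 0.811 in inguinal high-fat ones. Glycam1, a product of high endothelial venules, had 2.05, 1.62 and 0 FPKM in inguinal normal-diet libraries and 0 in all others. In epididymal libraries Ccl21a, a chemokine of lymphoid stroma, had 12.1, 12.3 and 0.432 FPKM on the normal diet and at most 0.443 on the high-fat diet. Dendritic cell markers, 4 of 9 lower and 1 higher in the inguinal diet comparison, summed to 106 to 159 FPKM in inguinal normal-diet libraries and 57.7 to 74.1 in high-fat ones. The part of lymph node tissue in the antibody gene values was not tested.

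Plasma cell genes did not move as one. Of 16 genes of plasma cells and antibody secretion, 5 were lower and 3 higher on the high-fat diet in inguinal libraries, and 5 were higher and 0 lower in epididymal ones. Mzb1, a chaperone of antibody-secreting and B-1 cells, had 11.3, 0.45 and 12.4 FPKM in inguinal normal-diet libraries and at most 0.656 in all others. Sdc1, the plasma cell surface marker syndecan-1 that many other cell types also carry, was higher in epididymal high-fat libraries, at 35.5, 35.1 and 28.7 against 3.95, 4.90 and 7.38 FPKM on the normal diet (difference 2.54, limma, adjusted p = 3.94e-05). Xbp1, a regulator of secretion in many cell types, was between 63.2 and 165 FPKM throughout and was not called by diet in either depot. Tnfrsf17, the receptor BCMA of plasma cells, reached at most 0.942 FPKM in any library.

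Some genes of B cell receptor signalling and Fc receptors, which myeloid cells share, rose on the high-fat diet in epididymal libraries. There 7 of 16 signalling genes were higher and 0 lower (list median 1.23, all genes 0.07), among them Syk (5.55, 11.3 and 5.03 against 24.4, 28.4 and 18.9 FPKM) and Btk (1.45, 2.12 and 1.58 against 8.41, 9.79 and 6.75), while in inguinal libraries 10 were lower and 0 higher. Of 9 genes of antibody binding and transport, 4 were higher in epididymal libraries, such as Fcer1g, the common gamma chain of Fc receptors, by 2.17 (limma, adjusted p = 0.00452), while the median of that list was -0.065. The summed macrophage list was 1310 to 2316 FPKM in those high-fat libraries and 501 to 1016 on the normal diet, and its part in these genes, and in Ighm, was not tested. Fcgrt, the neonatal Fc receptor that carries IgG, was between 72.8 and 168 FPKM in every library and was not called by diet. Pigr, the epithelial carrier of IgA and IgM, was at most 0.205 FPKM.

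Other cells of fat tissue moved with the epididymal comparison as well. Of 9 endothelial markers 7 were lower on the high-fat diet there (1 in inguinal libraries), such as Cdh5, the cadherin of vessel junctions, at 8.12, 20.9 and 19.1 against 113, 130 and 103 FPKM. Of all genes tested, 7.35% were lower in epididymal and 10.2% in inguinal libraries. Of 9 fibroblast and mesothelial markers 4 were lower in epididymal and 3 in inguinal libraries, and the summed endothelial level was 36.1 to 66.4 FPKM in epididymal high-fat and 361 to 426 in normal-diet libraries. Their part in the fall of Igkc, Jchain and the V genes was not tested.

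In the 2 brown libraries antibody RNA other than Ighm, whose 254 FPKM on the high-fat diet exceeds every epididymal normal-diet value, was low. Jchain was 0.281 FPKM on the normal and 0.216 on the high-fat diet, Cd79a was 0.547 and 0.562, and Ighv1-9 at 3.56 and Igkv5-43 at 3.45 FPKM were the highest V genes in the high-fat and normal-diet library respectively. With 1 library per diet these values have no replicate check.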

How the data were processed

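Poly(A) RNA of 14 libraries was sequenced by the submitters. The submitters' processing notes name mm10, TopHat2 2.0.9 and Cuffdiff 2.1.1, and the authors deposited 1 value per Ensembl gene and library. The deposited values were taken as FPKM from these tools and from the values themselves, since the headers name no unit. The annotation, the strand setting and the handling of reads that fit several genes are not given in the sources used here. Of 38553 identifiers, 36638 matched a symbol, and gene positions come from RefSeq's annotation of GRCm38.p6.

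limma 3.58.1 in R 4.3.3 (group means, empirical Bayes with trend, 8 residual degrees of freedom) was fitted to log2(FPKM + 0.5) of the 12 white libraries, for 14959 genes with at least 0.5 FPKM in at least 3 libraries. Calls are two-sided Benjamini-Hochberg adjusted p under 0.05 over all genes. The script was tested on simulated data. Ratios of constant genes were compared by exact permutation over libraries. The members, the gene lists and the tests were chosen with earlier results of these data known. Named genes are all constant members, Jchain, lambda V members, the 6 heavy and 6 kappa V genes with the highest mean, members called between epididymal diets, the genes at the edge of the rule, and leading genes of each list; others were chosen after their values were seen.

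Tried instead were a pseudocount of 0.1 or 1, testing genes at any level above 0, requiring 2 FPKM, median-ratio and quantile scaling, a replicate block, only the 2 groups compared, each library left out, and the sets by mitochondrial tRNA. The labels do not say what a replicate number marks. Deviations of same-numbered libraries correlated at 0.184, 0.111 and 0.146 between depots on the high-fat diet. Between diets in epididymal libraries they correlated at 0.180, 0.0825 and 0.163, and each other contrast had at least 1 pair under 0.1. Differently numbered libraries were not compared, so these values do not show whether the numbers pair the samples.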

Additional observations from a re-analysis of the deposited data

Results flagged for a closer look

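For 13 V genes the diet difference differed between depots by the interaction test in limma, with a larger fall in inguinal libraries. The difference of the differences in log2(FPKM + 0.5) was 5.23 for Ighv1-82, 4.79 for Igkv6-17, 4.60 for Igkv8-30, 4.35 for Igkv14-100, 4.16 for Igkv6-15, 4.10 for Igkv14-111, 3.63 for Igkv5-48, 3.43 for Igkv6-20, 3.37 for Ighv2-2, 3.36 for Ighv1-7, 3.27 for Igkv16-104, 3.21 for Ighv5-17 and 3.05 for Igkv6-25. Each met the rule for members only through inguinal normal-diet libraries, so a low level in all but at most 1 epididymal library was set by the choice.

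Joining (J) segment genes, which the rule does not cover, were listed above 0 in a single library, inguinal normal-diet replicate 2. Ighj1 had 588204 FPKM, Ighj3 88569, Ighj4 67887 and Igkj2 1190000, while the other 5 of 9 J genes were at 0 in that library and all 9 at 0 in the other 13. These features are 38 to 54 bases long, and FPKM divides by length.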

How the results depend on the processing

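Over 685 alternatives for single genes, 593 kept direction and side of the threshold, 55 lost a call, 32 gained one and 5 changed sign. The sign changes were Igha between depots on the normal diet (-0.56 without inguinal normal-diet replicate 2, the lowest with 1 library left out, where the highest was 1.71, -0.94 with only the inguinal library with mitochondrial tRNA at 0, -0.17 without inguinal normal-diet replicates 0 and 2) and, in that last setting, Ighm between depots (0.10) and its diet by depot difference (-0.10). The cause was not tested.

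Members called, with 1 library left out, ranged from 31 to 75 for diet in inguinal, 5 to 14 for diet in epididymal, 14 to 64 for depot on the normal diet, 0 to 2 for depot on the high-fat diet and 4 to 45 for diet by depot. Members tested in these fits ranged from 79 to 110, and calls over all genes moved too. For diet in inguinal they were 1923 of 14702 where 31 members were called, and 4627 of 14694 where 75 were. For depot on the normal diet they were 2988 of 14694 where 64 members were called. With only the 2 groups compared, members called were 37 of 68 for inguinal diet and 11 of 25 for epididymal diet (10 lower, 1 higher). For depot they were 6 of 100 on the normal diet and 1 of 8 on the high-fat diet. Calls over all genes were then 1015 of 13893, 3792 of 13532, 62 of 13813 and 3139 of 13518, in that order. With inguinal normal-diet replicates 0 and 2 left out, chosen after seeing the data, 57 members were tested. Members called were 16 for inguinal diet, 4 for depot on the normal diet and 2 for diet by depot. Replicate 1 is then the only inguinal normal-diet library, so the number and direction of these calls do not cover the spread between inguinal libraries. The medians of the members were -2.23, -0.72 and 0.88, in that order. With all libraries they were -3.05, -1.80 and 1.94. Inguinal diet gave 31 of 79 with only the normal-diet libraries with mitochondrial tRNA above 0, which is the fit without replicate 0. Depot on the high-fat diet gave 1 of 111 with a pseudocount of 0.1. Diet by depot gave 6 of 137 with no filter, beside 695 of 22571 genes. Of 172 alternatives for ratios, 169 stayed within the replicate spread. With a pseudocount of 0.1 the log2 ratio of Jchain to Ighm in inguinal libraries differed by -5.07, and that of Igkc to Cd79a by -0.38 for epididymal diet and 2.17 for depot on the high-fat diet.

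The replicate block gave 57, 11, 30, 1 and 11 members called for the 5 comparisons, in the order above, against 57, 9, 29, 0 and 13 without it. Over all 14959 genes it gave 3453, 3404, 1085, 1777 and 1152 calls, against 2914, 2918, 974, 1587 and 1080. The pairing check used same-numbered libraries only, so it cannot show for any comparison whether the numbers pair the samples.

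Depth is unknown in FPKM, so values near 0, which include most V genes outside inguinal normal-diet libraries, carry no counting error here. Reads shared between near-identical V genes could not be assessed. Normal-diet inguinal results rest on 3 libraries, of which replicate 1 has much lower lymphocyte RNA.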
